A study of Homo sapiens with 9 samples.

Results

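The genes described here encode the nuclear pore complex and the soluble machinery that carries proteins and RNA through it. They were taken from a fixed list of 51 symbols, and 50 of them were measured by a probe that the array annotation gives to a single gene, out of 18404 genes measured in this way. The list holds 25 nucleoporins, 14 importins, 8 genes of export (7 exportins and the mRNA export cofactor NXT1) and 4 regulators of the GTPase Ran. The missing member was RCC1, the exchange factor that loads Ran with GTP, whose probe is annotated with a further gene, so no value is given for it.

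The nuclear pore is a channel through the nuclear envelope, built from stacked rings of nucleoporins. The outer ring is made of Y-shaped complexes, the inner ring lies around the channel, and membrane nucleoporins anchor the pore. Nucleoporins with phenylalanine-glycine repeats fill the channel, and filaments reach into the cytoplasm and form a basket on the nuclear side. Importins bind cargo in the cytoplasm and release it where they meet Ran-GTP in the nucleus, whereas exportins bind cargo together with Ran-GTP and release it when GTP is hydrolysed outside.

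RNA came from MCF10A, an established and non-tumorigenic human mammary epithelial cell line, and was hybridised to whole-transcript arrays, with 3 arrays in each of 3 groups. The source label names the controls Parental, whereas the design text says that they carried an empty vector. The other groups expressed wild-type HER2 (WT-HER2) or Delta-HER2, a splice variant of this receptor tyrosine kinase. All cells were kept in medium with 5% horse serum, 20 ng/ml epidermal growth factor, hydrocortisone, cholera toxin and insulin, and then spent 16 hours without serum or these supplements, as far as the labels name them. Whether a line was a clone or a pool, which promoter drove the transgene and whether replicates were separate cultures are not given in the sources used here. The p-values therefore measure the spread between these arrays, which may be technical, and an effect of making a line cannot be told apart from that of its receptor.

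Levels are log2 values, so a difference of 1 is a doubling of the signal. Differences were tested with limma over all 18404 genes, and a gene is said to have risen or fallen where its p-value, adjusted by the Benjamini-Hochberg method over all of them, lay under 0.05. Median levels of the arrays lay between 4.04 and 4.18, and all 50 members lay above a background bound of 3.22. This bound was the 0.95 quantile of the values of 340 olfactory receptor genes, which served as a gauge of background. ERBB2, the gene of HER2, rose with either transgene (differences of 0.99 and 1.96, adjusted p = 1.99e-04 and 1.82e-07), and its 3 WT-HER2 values were identical. Such ties were not confined to ERBB2, as each pair of arrays shared 1026 to 2282 identical values among 32321 probes. The effect of the ties on the p-values was not tested. Of the epithelial markers, 8 of 12 were measured, and their mean level was 10.06 to 10.14 on control, 9.85 to 9.88 on WT-HER2 and 9.70 to 9.71 on Delta-HER2 arrays. Of these 8, 3 fell and 1 rose with either transgene against control. For this and the marker counts below, 11.7% of all genes fell and 13.6% rose with Delta-HER2. With WT-HER2 the shares of all genes were 0.902% and 0.777%. With Delta-HER2, the desmosome gene DSG3 fell by 1.71, the E-cadherin gene CDH1 by 1.03 and EGFR by 0.46, and LAMB3 rose by 0.45. With WT-HER2, DSG3 fell by 0.76, KRT14 by 0.68 and CDH1 by 0.33, and LAMB3 rose by 0.38. Of 8 fibroblast markers 3 lay at or under the background bound in each group, of 7 blood markers 3, 3 and 4, and of 8 endothelial markers 7, 7 and 6 (control, WT-HER2 and Delta-HER2). The group means of PTPRC, CDH5 and PDGFRA were under that bound throughout. With Delta-HER2, 1 endothelial marker rose (PECAM1, from 3.00 to 3.90) and 1 fell (KDR), 1 blood marker rose (CD68) and 2 fell (CSF1R and ITGAM), and 1 fibroblast marker fell (COL1A1). With WT-HER2, the fibroblast marker DCN and the blood marker CD68 rose. The part of these markers in the results was not tested. In such bulk samples a change in the make-up of the culture and a change in RNA per cell cannot be told apart.

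Among the arrays, 2 stood furthest from the rest of their own group. Control replicate 1 had the lowest value of its group for 41 of the 50 members, with a median of -0.21 against the other control arrays. WT-HER2 replicate 3 likewise had the lowest value of its group for 41 members, with a median of -0.23. Over all genes the corresponding medians were 0.01 and 0.00, and what set either array off from the mean of its group correlated between them at 0.64 across genes, which are not independent replicates. Delta-HER2 replicate 2 had the lowest value of its group for 33 members, with a median of -0.10. The number of members that rose with Delta-HER2 against control was 37 with all arrays and 37 without both of these, of which 36 were shared.

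In Delta-HER2 cells most pore and transport genes were higher than in control cells. Of the 50 members, 37 (74%) rose and 1 fell, while 13.6% of all genes rose and 11.7% fell. The median difference of the members was 0.64, against -0.01 for all genes. The largest increases were those of RANBP1, a Ran-binding protein (1.82), NDC1, a membrane nucleoporin (1.74), and NUP93, an inner ring nucleoporin (1.65). The member that fell was TNPO3, an importin of splicing factors (-0.27). The 3 Delta-HER2 arrays lay above all 3 control arrays for 39 members and below them for 2, while 19.2% and 17.8% of all genes did so.

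With WT-HER2 no member passed the test against control. The differences ran from -0.37 to 0.22, with a median of -0.03 against 0.01 for all genes. At an unadjusted limma p below 0.05 there were 4 of the 50 members, against 2067 of all 18404 genes. The smallest limma adjusted p of a member was 0.251. At an adjusted p below 0.05, 0.777% of all genes rose and 0.902% fell in this comparison. The 3 WT-HER2 arrays lay above all control arrays for 1 member and below them for 3, against 6.4% and 7.63% of all genes.

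Delta-HER2 cells also differed from WT-HER2 cells. In that comparison 36 of 50 members rose and 0 fell, with a median of 0.63, against 13.4% and 9.35% of all genes (22.8% in either direction). ERBB2 itself was higher in Delta-HER2 than in WT-HER2 arrays (log2 difference 0.98, limma adjusted p = 8.57e-06). These lines thus differed in ERBB2 signal as well as in receptor form, and the part of that signal was not tested. The comparisons of Delta-HER2 with control and with WT-HER2 share the Delta-HER2 arrays, so they are not independent. Of the members, 34 passed the test as higher in both. KPNB1, IPO5 and NXT1 passed against control alone, NUP54 and KPNA3 against WT-HER2 alone, and 11 members rose in neither. For TNPO3, the lower level with Delta-HER2 did not pass against WT-HER2 (-0.17, adjusted p = 0.138).

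**Figure D1:**
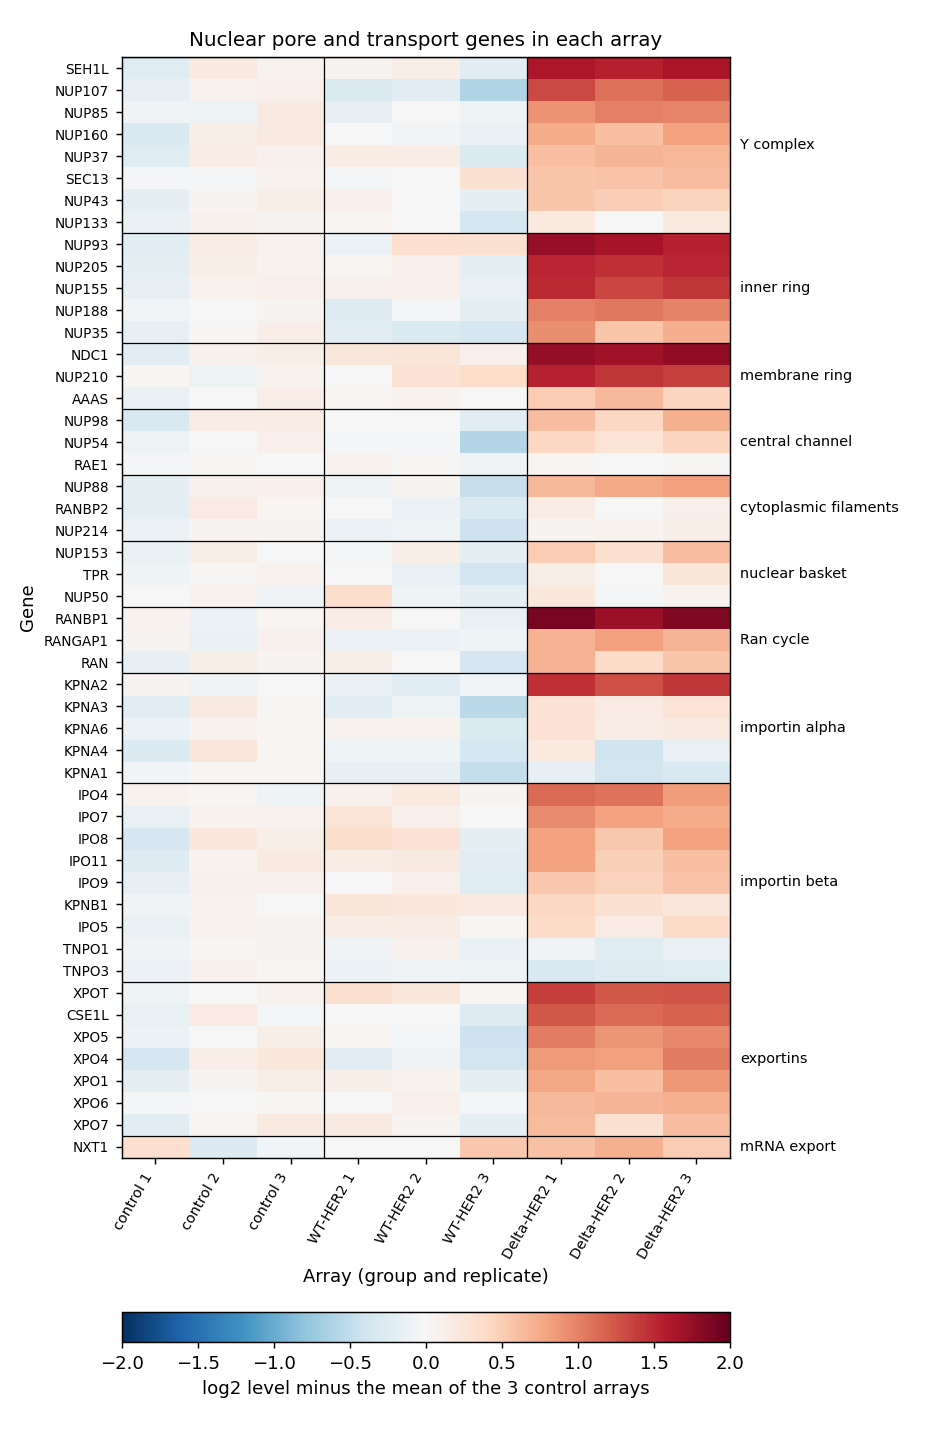
Colour gives the log2 level of each of 50 genes (rows, grouped by complex or role) in each of 9 arrays (columns), minus the mean of the 3 control arrays. The Delta-HER2 columns are red for most rows, by 1.82 on average for RANBP1, while RAE1 and the rows of TPR and NUP214 are near white; control replicate 1 and WT-HER2 replicate 3 are bluer than the rest of their group in most rows.

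Mitosis genes moved in the same comparisons. While 13.6% of all genes rose with Delta-HER2 against control, 24 of 24 such genes did so, with a median of 1.54. With WT-HER2 against control 0 of the 24 passed, while 0.777% of all genes rose and 0.902% fell. There, 21 of the 24 differences were positive and 3 negative, against 9723 and 8670 of all genes. The 3 WT-HER2 arrays lay above all control arrays for 7 of the 24 and below them for 1, against 6.4% and 7.63% of all genes. The mean level of the mitosis genes was 6.16 to 6.32 in control, 6.22 to 6.51 in WT-HER2 and 7.60 to 7.80 in Delta-HER2 arrays. Their part in the values of the transport genes was not tested.

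Promoter sequences are shown for a few members to set motif matches beside the values of members that passed the test and members that did not. They come from RefSeq (GRCh38.p14), which gave a promoter for 45 of the 50 members at the first start listed. The 250 bases before the start were searched on both strands for CCAAT, for the E-box CACGTG, for E2F sites (TTTCCCGC, TTTGGCGC or TTTCGCGC), for the ETS site CCGGAAGT and for the consensus site of NRF1. The last 150 of these bases follow, 5′ to 3′ on the strand of the gene, with motif matches in capitals. KPNA2 (chr17:68035585-68035734, plus strand) rose by 1.39 and KPNA6 (chr1:32107906-32108055, plus strand) differed by 0.21 without passing. NUP107 (chr12:68686828-68686977, plus strand) and NUP188 (chr9:128947549-128947698, plus strand) rose, and TNPO3 (chr7:129055112-129055261, minus strand) fell.
KPNA2: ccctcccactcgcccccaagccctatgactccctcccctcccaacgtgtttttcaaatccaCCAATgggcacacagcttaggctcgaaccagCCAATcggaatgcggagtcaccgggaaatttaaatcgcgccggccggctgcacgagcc
KPNA6: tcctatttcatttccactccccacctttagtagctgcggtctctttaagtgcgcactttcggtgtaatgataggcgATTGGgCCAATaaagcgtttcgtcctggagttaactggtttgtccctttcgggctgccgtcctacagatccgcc
NUP107: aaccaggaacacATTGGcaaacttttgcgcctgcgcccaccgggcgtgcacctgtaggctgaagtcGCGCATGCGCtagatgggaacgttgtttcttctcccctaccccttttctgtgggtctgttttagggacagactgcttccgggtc
NUP188: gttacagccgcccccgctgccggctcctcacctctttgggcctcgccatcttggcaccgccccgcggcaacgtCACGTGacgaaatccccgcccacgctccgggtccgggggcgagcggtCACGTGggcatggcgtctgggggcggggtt
TNPO3: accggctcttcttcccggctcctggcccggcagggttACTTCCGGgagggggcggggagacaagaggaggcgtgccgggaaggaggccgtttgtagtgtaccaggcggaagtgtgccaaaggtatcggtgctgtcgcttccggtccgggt

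KPNA2 and KPNA6 each carried 2 CCAAT matches, at 89 and 58 bases before the start in KPNA2 and at 74 and 68 in KPNA6. The capitals of NUP107 are a CCAAT match on the other strand and an NRF1 match, those of NUP188 are 2 E-boxes, and those of TNPO3 are an ETS match on the other strand. CCAAT was found in 19 of 45 member promoters (42.2%), against 33% of all 27305 promoters and 34.4% of those of the genes tested. It was present in 15 of the 33 promoters of members that rose and in 4 of the 12 others. The E-box was found in 6 of 45 (13.3%, against 6.49% of all promoters and 7.86% of those of the genes tested) and the ETS site in 6 of 45 (13.3%, against 3.64% and 5.21%). Each of these was present in 4 of 33 members that rose (12.1%) and in 2 of 12 others (16.7%). The NRF1 site was found in 2 of 45 (4.44%, against 1.13% and 1.54%), 1 that rose and 1 that did not, and an E2F site in 1 of 45 (2.22%, against 2.38% and 3.24%), which rose. These matches are descriptions of sequence and were not tested.

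Within the pore, the scaffold and membrane rings rose almost throughout in Delta-HER2 cells. Of their 16 members, 15 rose against control, with a median of 0.99. Of the 9 members of the channel, the cytoplasmic filaments and the nuclear basket, 3 rose (33.3%), with a median of 0.11. All 9 differences were positive. Of all genes 13.6% rose, with a median of -0.01. Against WT-HER2, 15 of the 16 and 4 of the 9 rose, with medians of 1.11 and 0.29, while 13.4% of all genes did so. The grouping was made from known positions in the pore, but with earlier results of these data known. The difference between the groupings was not tested.

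In the inner ring 5 of 5 members rose with Delta-HER2 against control, with a median of 1.42, while 13.6% of all genes rose. NUP93, which holds the inner ring together, had levels of 5.87, 6.22 and 6.15 in control, 5.96, 6.42 and 6.38 in WT-HER2 and 7.82, 7.73 and 7.64 in Delta-HER2 arrays. The Delta-HER2 arrays lay more than 1 log2 above each array of the other groups, and the rise was 3.13-fold (log2 difference 1.65, SE 0.14, adjusted p = 1.95e-05). NUP205, a large scaffold protein of the same ring, stood at 6.17, 6.46 and 6.42 in control, at 6.39, 6.44 and 6.16 in WT-HER2 and at 7.88, 7.81 and 7.88 in Delta-HER2 arrays. It rose 2.84-fold (1.51, SE 0.10, adjusted p = 5.95e-06), with control and WT-HER2 values that overlapped. NUP155, whose product links the ring to the membrane, rose 2.67-fold (1.42, SE 0.10, adjusted p = 7.35e-06), from 6.49 ± 0.15 to 7.91 ± 0.08 (SD, n = 3).

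NUP188, the relative of NUP205, and NUP35 rose less. NUP188 went from 6.68 ± 0.05 in control to 7.69 ± 0.03 with Delta-HER2 (SD, n = 3), a 2.02-fold rise (adjusted p = 8.39e-06). NUP35 had levels of 4.83, 5.03 and 5.13 in control, 4.77, 4.70 and 4.65 in WT-HER2 and 5.92, 5.56 and 5.72 in Delta-HER2 arrays. All WT-HER2 values of NUP35 lay under the control values, yet the difference of -0.29 did not pass (SE 0.11, adjusted p = 0.355). With Delta-HER2 it rose by 0.74 (SE 0.11, adjusted p = 7.70e-04).

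In the outer ring 7 of 8 Y-complex genes rose with Delta-HER2 against control, with a median of 0.68, while 13.6% of all genes rose. SEH1L, which encodes a small propeller protein that also acts in amino acid sensing, had levels of 5.87, 6.29 and 6.18 in control, 6.17, 6.24 and 5.89 in WT-HER2 and 7.73, 7.67 and 7.74 in Delta-HER2 arrays. Its rise of 3.04-fold (1.60, SE 0.12, adjusted p = 1.16e-05) was the largest of the complex. NUP107, a core subunit, stood at 6.28, 6.52 and 6.54 in control, at 6.15, 6.23 and 5.85 in WT-HER2 and at 7.77, 7.54 and 7.62 in Delta-HER2 arrays. The WT-HER2 arrays were the lowest, without overlap with control, but that difference of -0.37 did not pass (SE 0.12, adjusted p = 0.251). Against control NUP107 rose 2.30-fold with Delta-HER2 (1.20, SE 0.12, adjusted p = 6.01e-05), and against WT-HER2 2.96-fold (1.57, SE 0.12, adjusted p = 1.52e-05).

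The other outer ring genes that rose with Delta-HER2 were NUP85 (0.96), NUP160 (0.72), NUP37 (0.65), SEC13 (0.58), whose product also coats vesicles leaving the endoplasmic reticulum, and NUP43 (0.50). NUP133, which anchors the complex near the membrane, did not pass. Its levels were 7.38, 7.60 and 7.57 in control and 7.70, 7.51 and 7.71 in Delta-HER2 arrays, which overlap. The difference was 0.13, with a 95% confidence interval from -0.14 to 0.40.

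All 3 genes of the membrane ring rose with Delta-HER2 against control, while 13.6% of all genes did so. NDC1, a membrane protein needed to insert new pores, had levels of 6.37, 6.67 and 6.70 in control, 6.81, 6.83 and 6.68 in WT-HER2 and 8.34, 8.25 and 8.35 in Delta-HER2 arrays. The Delta-HER2 arrays were well separated from the others, which overlapped, and the rise was 3.33-fold (1.74, SE 0.10, adjusted p = 1.95e-06). NUP210, a membrane glycoprotein of the pore, rose 2.71-fold, from 5.24 ± 0.09 to 6.68 ± 0.09 (SD, n = 3, adjusted p = 7.44e-06). AAAS, whose product aladin is held at the pore by NDC1, rose by 0.52 (SE 0.09, adjusted p = 0.0016).

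Of the 3 channel genes, NUP98 rose with Delta-HER2. NUP98 encodes a mobile repeat protein, and its difference was 0.58 (SE 0.14, adjusted p = 0.0118; 0.52 and 0.0521 without Delta-HER2 replicate 3). NUP54, part of the central channel, differed by 0.38 from control, with all Delta-HER2 arrays above the controls. It did not pass (adjusted p = 0.0971), but did without WT-HER2 replicate 3 (adjusted p = 0.00684), without that array and control replicate 1 together (0.015), with the 2 groups alone (0.0158) and with array weights (0.00812). Against WT-HER2 NUP54 rose by 0.59 (adjusted p = 0.0162; 0.0597 without Delta-HER2 replicate 1 and 0.0615 without Delta-HER2 replicate 3).

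RAE1, the partner of NUP98 in mRNA export, did not pass in any comparison. Its levels were 6.87, 6.93 and 6.90 in control, 6.97, 6.93 and 6.84 in WT-HER2 and 6.94, 6.90 and 6.93 in Delta-HER2 arrays. All 3 groups overlapped, and the 95% confidence interval of the Delta-HER2 difference ran from -0.12 to 0.16.

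On the cytoplasmic side NUP88 rose by 0.75 with Delta-HER2 (SE 0.14, adjusted p = 0.0026). Its binding partner NUP214, which receives exported mRNA, differed by 0.08, with an interval from -0.14 to 0.30. The levels of NUP88 were 6.45, 6.71 and 6.73 in control and 7.29, 7.38 and 7.45 in Delta-HER2 arrays, while those of NUP214 were 6.85, 7.02 and 7.02 and then 7.01, 7.04 and 7.08. Thus the control and Delta-HER2 arrays were apart for NUP88 and overlapped for NUP214. RANBP2, the filament protein that holds RANGAP1 at the pore, differed by 0.09 (interval from -0.15 to 0.33); it has near-identical RGPD copies in the genome, which its probe may not tell apart.

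In the nuclear basket NUP153 rose by 0.48 with Delta-HER2 (SE 0.11, adjusted p = 0.0101), from 7.23 ± 0.13 to 7.71 ± 0.15 (SD, n = 3). TPR, the coiled-coil protein of the basket filaments, differed by 0.11 (interval from -0.13 to 0.36). NUP50, a mobile basket protein that helps to release cargo from importins, differed by 0.08 (interval from -0.22 to 0.39). Neither passed against control. TPR did not pass against WT-HER2 either (0.29, adjusted p = 0.0864), but did so without WT-HER2 replicate 1 (adjusted p = 0.0421) and with array weights (0.0479).

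**Figure D2:**
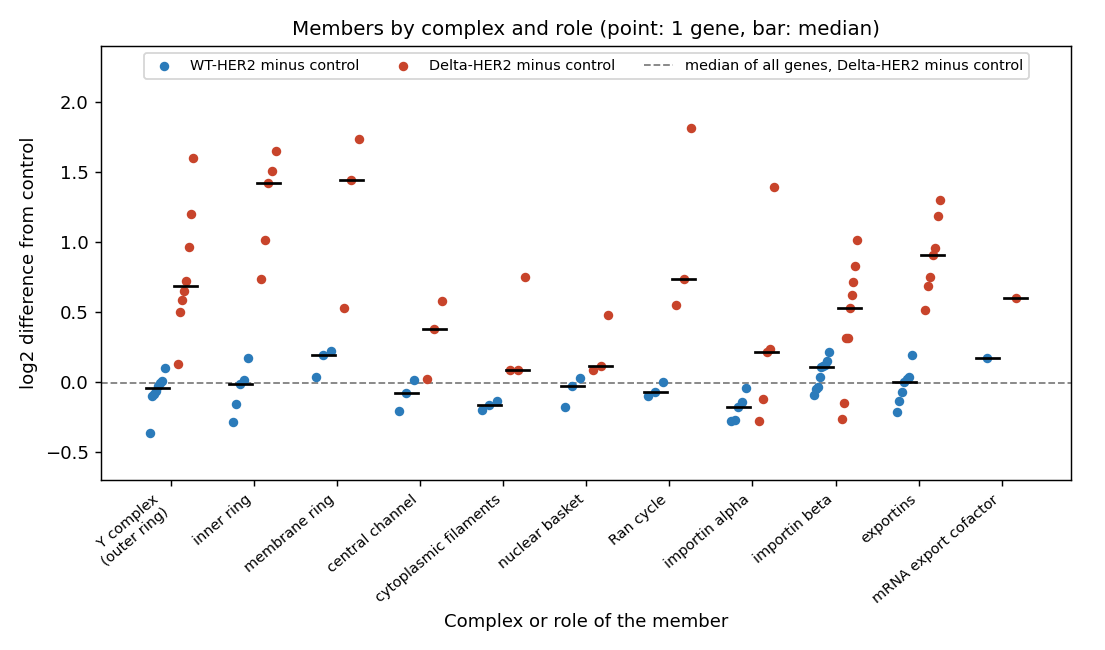
Each point is 1 gene, placed by its complex or role, and its height is the log2 difference of WT-HER2 (blue) or Delta-HER2 (red) from control; short bars are medians and the dashed line is the median Delta-HER2 difference of all genes. Within the pore the red medians are 1.42 for the inner ring, 1.44 for the membrane ring and 0.68 for the outer ring. They are 0.38 for the central channel, 0.09 for the cytoplasmic filaments and 0.11 for the nuclear basket.

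The Ran cycle gives transport its direction. All 3 of its measured genes rose with Delta-HER2 against control, while 13.6% of all genes did so. RANBP1, which binds Ran-GTP leaving the nucleus and helps its hydrolysis, stood at 7.35, 7.16 and 7.33 in control, at 7.43, 7.27 and 7.14 in WT-HER2 and at 9.18, 8.99 and 9.13 in Delta-HER2 arrays. The control and WT-HER2 arrays overlapped fully, with means of 7.28 in each, and the Delta-HER2 arrays were 3.52-fold higher than control (1.82, SE 0.10, adjusted p = 1.37e-06). RANGAP1, the activator of GTP hydrolysis by Ran, rose 1.66-fold (0.73, SE 0.08, adjusted p = 9.99e-05), from 6.94 ± 0.12 to 7.67 ± 0.08 (SD, n = 3).

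RAN itself had levels of 8.86, 9.15 and 9.08 in control, 9.15, 9.03 and 8.69 in WT-HER2 and 9.73, 9.42 and 9.59 in Delta-HER2 arrays. The Delta-HER2 arrays lay above all others, by 0.55 on average against control (SE 0.13, adjusted p = 0.0142). Without Delta-HER2 replicate 1 the difference was 0.47 and did not pass (adjusted p = 0.0619). These levels come from the probe with the higher mean of the 2 annotated to RAN. The other probe gave a Delta-HER2 difference of 0.55 at a lower mean level in control of 7.52. Whether either probe reads RAN alone was not tested.

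Importin alpha proteins are adaptors that join the classical nuclear localisation signal to importin beta, and 5 of their genes were on the list. With Delta-HER2 against control KPNA2 rose and the other 4 did not pass, while 13.6% of all genes rose. KPNA2 had levels of 8.83, 8.70 and 8.77 in control, 8.63, 8.54 and 8.71 in WT-HER2 and 10.23, 10.05 and 10.20 in Delta-HER2 arrays. The Delta-HER2 arrays were far above the others, and the rise was 2.63-fold (1.39, SE 0.08, adjusted p = 2.03e-06).

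KPNA1, another importin alpha, had lower values in both transgenic lines, although neither difference passed. Its levels were 8.03, 8.12 and 8.11 in control, 7.92, 7.92 and 7.61 in WT-HER2 and 7.92, 7.71 and 7.78 in Delta-HER2 arrays. Every transgenic array lay under every control array, but the differences of -0.27 (adjusted p = 0.324) and -0.28 (adjusted p = 0.0676) did not pass. Without WT-HER2 replicate 3 the Delta-HER2 difference of KPNA1 passed (adjusted p = 0.0176), as it did in 5 other alternatives (adjusted p from 0.00917 to 0.0471).

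KPNA3 differed from control by 0.24 with Delta-HER2 (95% confidence interval from -0.05 to 0.52). Against WT-HER2 KPNA3 rose by 0.52 (adjusted p = 0.0162), a call that was lost without Delta-HER2 replicate 1 (adjusted p = 0.0606) or Delta-HER2 replicate 3 (0.0577). KPNA6 differed from control by 0.21 (interval from -0.03 to 0.45), with all Delta-HER2 arrays above the controls. KPNA4 had the widest spread of the 5, with Delta-HER2 levels of 7.65, 7.06 and 7.30, and its interval ran from -0.50 to 0.26.

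**Figure D3:**
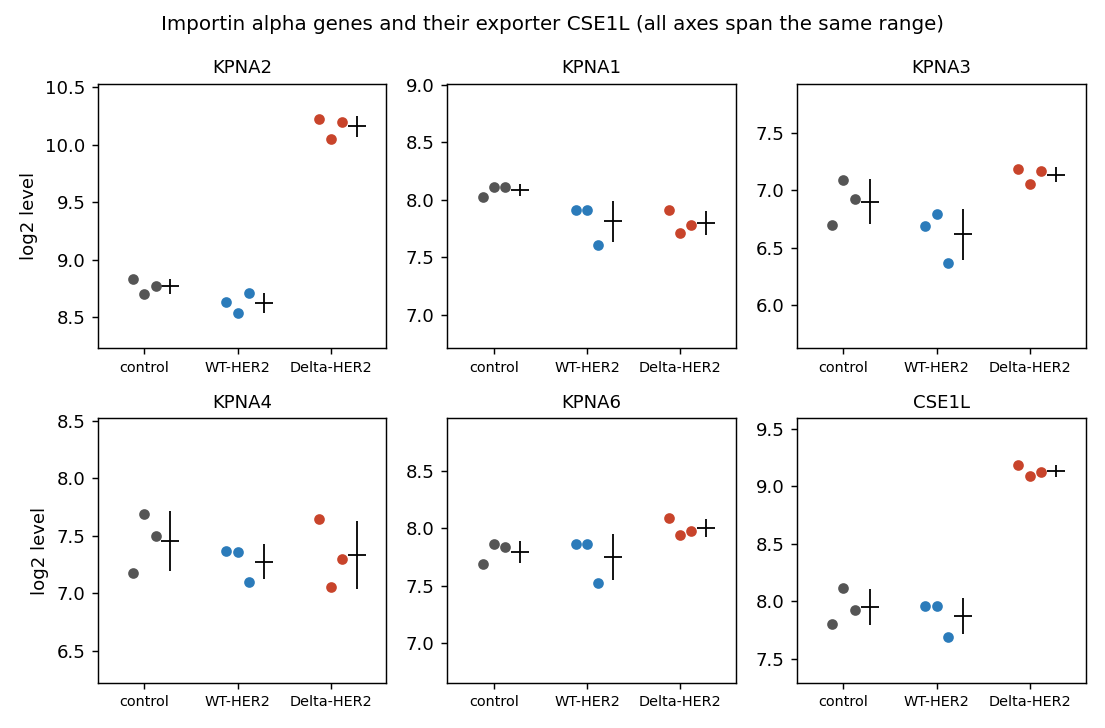
Points are log2 levels of 5 importin alpha genes and of CSE1L in each of 9 arrays, with the mean and SD of each group (n = 3) at their right; every axis spans the same range. KPNA2 (10.16 ± 0.09) and CSE1L (9.14 ± 0.05) are raised in Delta-HER2 arrays, and KPNA1, KPNA3, KPNA4 and KPNA6 show no comparable step.

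Among the 9 importin beta genes, 7 rose with Delta-HER2 against control, TNPO3 fell and TNPO1 did not pass. Of all genes, 13.6% rose and 11.7% fell. KPNB1, the main importin beta and the partner of importin alpha, had levels of 8.86, 9.01 and 8.94 in control, 9.18, 9.14 and 9.11 in WT-HER2 and 9.34, 9.24 and 9.17 in Delta-HER2 arrays. Either transgenic line lay above all control arrays, and the lines overlapped each other. The difference was 0.32 with Delta-HER2 (SE 0.07, adjusted p = 0.0103) and 0.21 with WT-HER2, which did not pass (adjusted p = 0.295). Between the lines it was 0.11, with an interval from -0.06 to 0.27.

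Larger changes were seen in IPO4 and IPO7, importins that carry ribosomal proteins and histones among other cargo. IPO4 stood at 5.88, 5.84 and 5.72 in control, at 5.90, 6.00 and 5.87 in WT-HER2 and at 6.94, 6.90 and 6.65 in Delta-HER2 arrays. It rose 2.02-fold (1.02, SE 0.09, adjusted p = 3.28e-05), with the Delta-HER2 arrays clear of the rest. IPO7 rose 1.77-fold (0.83, SE 0.10, adjusted p = 1.69e-04), from 8.33 ± 0.13 to 9.16 ± 0.11 (SD, n = 3). IPO9, a carrier of histones and actin, rose by 0.52 (SE 0.11, adjusted p = 0.00483).

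The calls of 3 further importins were lost when some single arrays were left out, which leaves fewer arrays for the test. IPO8 rose by 0.72 (adjusted p = 0.0155) but not without Delta-HER2 replicate 1 (0.0604) or 3 (0.0599), where the difference was 0.67 each time. IPO11 rose by 0.62 (adjusted p = 0.0116) but not without Delta-HER2 replicate 1 (0.0524). IPO5, an importin of ribosomal proteins and histones, rose by 0.31 (adjusted p = 0.0309). The call of IPO5 was lost without control replicate 1 (0.0934) or 3 (0.0541) or without Delta-HER2 replicate 1 (0.108) or 3 (0.112). In these fits the difference of IPO5 was 0.24 to 0.34. That call was also lost without control replicate 1 and WT-HER2 replicate 3 together (0.0621). With all arrays kept, it was lost with the replicate number as a block (0.0801) and with the 2 groups alone (0.0513). Against WT-HER2, IPO8 rose by 0.57 (adjusted p = 0.0483), a call lost without any one of 7 arrays (adjusted p from 0.0563 to 0.148). That call was also lost with robust variance (0.051), the replicate block (0.102) and the 2 groups alone (0.05). IPO11 rose by 0.59 against WT-HER2, a call lost without Delta-HER2 replicate 1 (adjusted p = 0.0743) or 3 (0.0505) and with the replicate block (0.0508).

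The transportin genes TNPO3 and TNPO1 had lower mean levels with Delta-HER2, and TNPO3 passed. TNPO3, which imports serine-arginine splicing factors, had levels of 8.24, 8.46 and 8.40 in control, 8.24, 8.30 and 8.26 in WT-HER2 and 8.06, 8.11 and 8.13 in Delta-HER2 arrays. All Delta-HER2 arrays lay under all others, and TNPO3 fell by 0.27 (SE 0.07, adjusted p = 0.0224). That call was lost when each array was centred on its median (adjusted p = 0.101). It was also lost without control replicate 2 (0.0869) or 3 (0.0766) and without Delta-HER2 replicate 1 (0.077) or 2 (0.0523). TNPO1, which imports hnRNP A1 and related RNA-binding proteins, differed by -0.15 (interval from -0.34 to 0.03). TNPO2, a further transportin gene that was not on the list, differed by 0.18 (interval from -0.04 to 0.40, adjusted p = 0.239).

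All 7 exportins rose with Delta-HER2 against control and against WT-HER2, with medians of 0.90 and 1.10. Of all genes, 13.6% and 13.4% rose in these comparisons. XPOT, which exports tRNA, had levels of 6.57, 6.67 and 6.73 in control, 6.98, 6.86 and 6.70 in WT-HER2 and 8.04, 7.90 and 7.92 in Delta-HER2 arrays. The Delta-HER2 arrays were clear of every other array, and the rise against control was 2.46-fold (1.30, SE 0.09, adjusted p = 5.95e-06). CSE1L, which carries importin alpha back to the cytoplasm, stood at 7.81, 8.11 and 7.93 in control, at 7.96, 7.96 and 7.69 in WT-HER2 and at 9.19, 9.09 and 9.13 in Delta-HER2 arrays. It rose 2.28-fold (1.19, SE 0.10, adjusted p = 2.42e-05), with control and WT-HER2 overlapping.

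XPO5, the exporter of microRNA precursors, rose 1.94-fold (0.96, SE 0.12, adjusted p = 2.72e-04), from 6.58 ± 0.12 to 7.54 ± 0.07 (SD, n = 3). XPO4 rose by 0.90 (adjusted p = 0.00129). XPO1, the exporter of proteins with leucine-rich export signals, had levels of 8.37, 8.63 and 8.71 in control, 8.69, 8.63 and 8.37 in WT-HER2 and 9.34, 9.16 and 9.43 in Delta-HER2 arrays. Control and WT-HER2 covered the same range, and XPO1 rose 1.68-fold with Delta-HER2 (0.75, SE 0.12, adjusted p = 0.00131).

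XPO6, which exports actin, had the smallest standard error of the exportins (0.07) and rose by 0.68 (adjusted p = 4.63e-05). XPO7 rose by 0.52 (adjusted p = 0.0215), and this call was lost in the absence of control replicate 1 (0.0666) or 2 (0.053), or without Delta-HER2 replicate 1 (0.0836) or 3 (0.082). Against WT-HER2 XPO7 rose by 0.49 (adjusted p = 0.0288), lost without WT-HER2 replicate 2 (0.066) or 3 (0.0858), or without Delta-HER2 replicate 1 (0.107) or 3 (0.104). With all arrays kept, both calls of XPO7 were lost with the replicate number as a block (0.0557 against control and 0.0709 against WT-HER2).

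NXT1, a cofactor of the general mRNA exporter, had the highest adjusted p of the members that rose. Its levels were 5.62, 5.01 and 5.22 in control, 5.27, 5.27 and 5.82 in WT-HER2 and 5.87, 6.00 and 5.78 in Delta-HER2 arrays. The rise of 0.60 against control (SE 0.18, adjusted p = 0.038) was lost without control replicate 2 (0.144) or 3 (0.113) and without any single Delta-HER2 array (0.0712 to 0.123). It was also lost under quantile normalization (0.0577) and with the replicate number as a block (0.0714). Against WT-HER2 the difference of 0.43 did not pass (adjusted p = 0.138). It passed without WT-HER2 replicate 3 (0.61, adjusted p = 0.0237), without that array and control replicate 1 together (0.00222) and with array weights (0.00682).

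**Figure D4:**
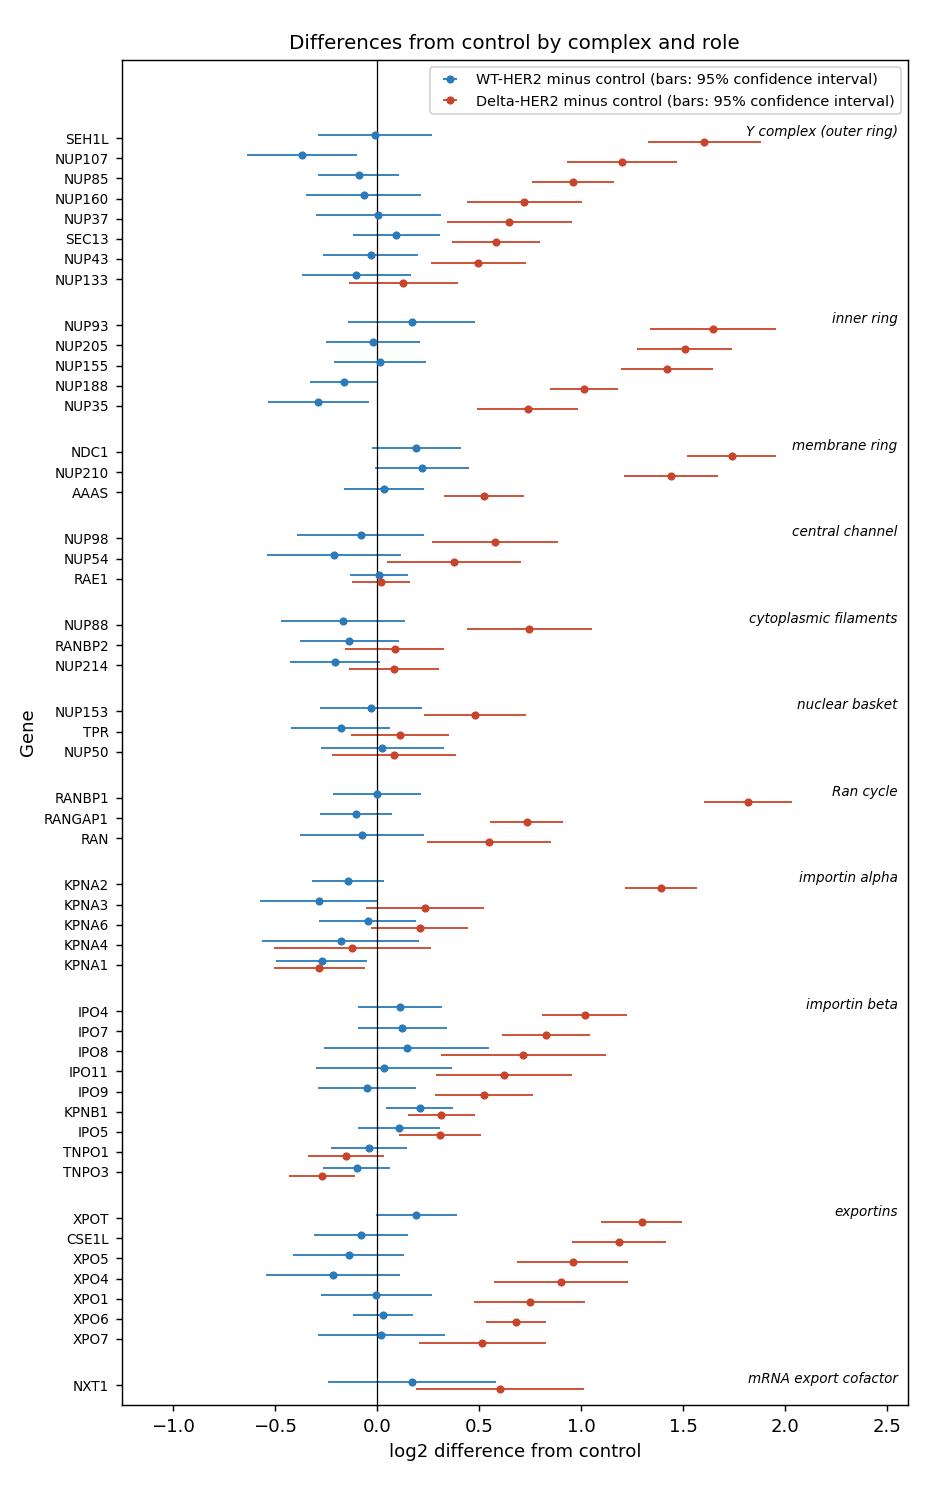
Points are log2 differences from control for each of 50 genes, for WT-HER2 (blue) and Delta-HER2 (red), and horizontal bars are 95% confidence intervals from the limma fit. The blue points lie between -0.37 and 0.22, and the red points between -0.28 (KPNA1) and 1.82 (RANBP1).

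Other genes of the pathway, which were not on the list, were measured in the same fit. Of 15 further pore and transport genes measured (of 19), 5 rose and 2 fell with Delta-HER2 against control, with a median of 0.06. Of all genes, 13.6% rose and 11.7% fell. With WT-HER2 against control 0 of the 15 passed, while 1.68% of all genes did so in either direction. NUTF2, the factor that brings Ran-GDP back into the nucleus, rose by 0.61 (SE 0.07, adjusted p = 2.33e-04). SNUPN, the import adaptor of spliceosomal particles, rose by 0.59 (adjusted p = 0.0129), RANBP3, a cofactor of XPO1, by 0.40 (adjusted p = 0.0103) and NUP62CL by 0.30 (adjusted p = 0.0243). NUP58, a partner of NUP54 in the channel, rose by 0.45 (adjusted p = 0.0281). The 2 genes that fell were the importin alpha genes KPNA5 (-0.55, adjusted p = 0.0255) and KPNA7 (-0.58, adjusted p = 0.0265), the latter from 3.49 to 2.91, which is under the background bound.

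Of 15 mRNA export genes measured (of 18), 4 rose (26.7%) and 0 fell with Delta-HER2 against control, with a median of 0.15. Of all genes, 13.6% rose and 11.7% fell in that comparison. With WT-HER2 against control 0 of the 15 passed, while 1.68% of all genes did so in either direction. ALYREF, an adaptor that hands mRNA to the exporter, rose by 1.29 (SE 0.09, adjusted p = 7.36e-06). NCBP1, the large subunit of the nuclear cap-binding complex, rose by 0.68 (adjusted p = 0.00177), the helicase gene DDX39A by 0.59 (adjusted p = 7.77e-04) and THOC6 by 0.36 (adjusted p = 0.0149). Other genes of the THO complex (THOC1, THOC2, THOC5 and THOC7) did not pass in this comparison, with differences from 0.03 to 0.30.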

How the data were processed

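The authors deposited log2 expression values of 32321 probes (transcript clusters) on 9 arrays; RMA, the affy package and R 2.14 are named per the submitters' processing notes, and no genome build is given in the sources used here. RMA corrects background, normalizes by quantiles and summarises probes. Values were used as deposited, with no filter on low values. Of the probes, 19158 had 1 gene symbol, and each gene was read from its probe with the highest mean, which gave 18404 genes. Symbols were updated by Entrez number (19128 matched).

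The fit used limma 3.58.1 (R 4.3.3) on all 9 arrays with 1 coefficient per group, two-sided, Benjamini-Hochberg adjustment over all genes. The number of arrays limits the precision, and the median SE of a difference was 0.10. The procedure was tested on simulated data. The fit held no block for the replicate numbers: 1 of 9 arrays correlated best with its own number. The members, lists and tests were chosen with earlier results of these data known. Every member is named; in the other lists those with the smallest p, and the genes that complete a count. The alternatives were other scalings, probe choices, filters, variance models, array weights, sets of arrays and thresholds. Protein sequences were not used here.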

Additional observations from a re-analysis of the deposited data

How the results depend on the processing

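The count of members that rose with Delta-HER2 against control (37) lay between 28, at an adjusted p below 0.01, and 38 over the 20 alternatives. Of all genes 13.6% rose in the main fit, 9.9% at that stricter threshold and 17.1% with array weights, where 38 members rose. Leaving out each array in turn gave 31 to 38 members. Of all genes, 11.1% rose without Delta-HER2 replicate 1 (31 members) and 14.7% without WT-HER2 replicate 3 (38 members). Against WT-HER2 the count of 36 lay between 31 and 39, and between 31 and 37 with single arrays left out. Of all genes 13.4% rose there, 9.54% at the stricter threshold (31 members) and 15.8% with array weights (39 members). With WT-HER2 against control it stayed 0 in either direction in every alternative, although the number of all genes called there (309) was 736 with array weights and 115 to 155 with the stricter threshold, the 2 groups alone (134), the replicate block (139) or on leaving out replicate 2 or 3 of control, or replicate 1 or 2 of WT-HER2. At the stricter threshold the number of all genes called was 2772 instead of 4191 for Delta-HER2 against WT-HER2. The cause was not tested.

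Members lower with Delta-HER2 against control numbered 1, and 2 with quantile normalization, trended variance, array weights, the 2 groups alone or both outlying arrays left out, where KPNA1 joined TNPO3. The number was 0 with median centring or the stricter threshold, and 0 to 2 with single arrays left out. Against WT-HER2 it was 0, and 1 (TNPO3, adjusted p = 0.0404) with quantile normalization. The causes were not tested. With the replicate number as a block, 34 and 33 members rose with Delta-HER2 against control and against WT-HER2; the numbers share no stated origin. No member called in either setting changed sign. Among the others, the sign turned in 63, 4 and 15 of 1000 refitted differences in the comparisons of the WT-HER2 and of the Delta-HER2 line with control and of the lines with each other. Probes near background limit the reading of KPNA7.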

Other observations

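The nuclear lamina lies under the pores, and its genes, together with those of other envelope proteins, split in direction in Delta-HER2 cells. Of 16 genes, 4 rose and 3 fell against control, with a median of 0.10, while 13.6% and 11.7% of all genes did so. The B-type lamin genes LMNB1 and LMNB2 rose by 1.93 (SE 0.09, adjusted p = 6.72e-07) and 1.72 (SE 0.13, adjusted p = 1.05e-05). TMPO, which encodes lamina-associated polypeptides, rose by 1.37 (adjusted p = 7.69e-06) and LBR, the lamin B receptor gene, by 1.22 (adjusted p = 5.22e-06). LMNA, the gene of the A-type lamins, differed by -0.10 and did not pass (adjusted p = 0.437).

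Of the genes that fell, SYNE2 and SUN1 encode parts of the bridge between nucleus and cytoskeleton. The related genes SUN2, SYNE1 and SYNE3 of the same list passed in neither direction with Delta-HER2 against control. SYNE2, which encodes a giant nesprin, fell by 1.38 (SE 0.10, adjusted p = 1.12e-05), and its mean was 8.59 in control and 7.21 in Delta-HER2 arrays. SUN1, its partner in the inner membrane, fell by 0.29 (adjusted p = 0.0183), and TOR1AIP1, a lamina-binding membrane protein gene, by 0.54 (adjusted p = 0.00607). No gene of this list passed with WT-HER2 against control, where 0.777% of all genes rose and 0.902% fell. The smallest adjusted p was 0.0786, for LBR. At an unadjusted limma p below 0.05 there were 2 of the 16 genes, against 2067 of all 18404 genes.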
